A study of Mus musculus with 43 samples.

Results

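A gene was placed in the group described here when the windows around its annotated starts held a peak of each of 5 histone arginine marks, H4R3me2a, H3R2me2a, H3R8me2a, H4R3me1 and H4R3me2s, in wild-type (WT) mouse testis cells at postnatal day 7 (P7). Of the 55450 genes of the GENCODE vM21 annotation, 422 met the rule, which asked for the summit of a peak within 3000 bp of an annotated transcript start in at least 2 P7 WT peak lists of each mark. The marks were mapped by CUT&Tag, in which an antibody directs a transposase to cut and tag the DNA around a histone mark, and each sample came as 1 list of called peaks. The WT lists, from C57BL/6J testes, held H4R3me2a in 3 lists and each other arginine mark in 2 at P7, with 2 lists each of the lysine marks H3K4me3 and H3K27ac, and the same marks again at P14, where H4R3me2s had 3 lists. Prmt1-dKO mice carried the Ddx4-CreERT2 transgene, which expresses a tamoxifen-inducible Cre from the germ cell promoter Ddx4 together with EGFP, and Prmt1 lox/lox alleles, and received tamoxifen on 3 days. At P7 they gave 2 lists of H4R3me2s, 2 Smart-seq2 RNA libraries (2 WT) and 3 bulk RNA-seq libraries (3 WT). The cells for CUT&Tag were a strained suspension from the tubules, without a sort named for them, whereas the Smart-seq2 cells were sorted for GFP, and the study describes the strained cells as nearly all germ cells. The controls of the Smart-seq2 libraries are labelled WT, but the methods name heterozygous Prmt1 +/lox mice that carry the same Cre. The bulk libraries are labelled spermatogonia, but the methods name whole testis, and there fewer cells of a type and less RNA per cell cannot be told apart. The P14 titles name spermatogonia and the cell type field names spermatocytes, and the peak names inside the P14 H4R3me2s lists carry a day label other than 14. No list of a control antibody was used here, and the depth behind the lists is unknown.

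Arginine methylation of histones is written by the protein arginine methyltransferases. Type I enzymes make the asymmetric dimethyl form (me2a) and type II enzymes the symmetric form (me2s), both by way of the monomethyl form (me1), and the type III enzyme Prmt7 stops at me1. Prmt1 is the main type I enzyme for H4R3, Prmt6 writes H3R2me2a, the study assigns H3R8me2a to Prmt2, and Prmt5 writes H4R3me2s, while H3K4me3 and H3K27ac are the marks of active promoters. Asymmetric H4R3 methylation is known as an activating mark, whereas H4R3me2s and H3R2me2a are mostly known in repression.

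The DNA under the coinciding summits fell into 4 kinds, and examples are printed so that the difference can be read. For each gene the point was taken where most marks had a summit within 250 bp, and a window of 201 bases around it was classed. Of the 422 genes, 196 (46.4%) had a CpG-rich window with under 50% of its words repeated in the assembly, called single-copy here (CpG observed over expected of at least 0.6 and GC of at least 50%), and 62 (14.7%) had another single-copy window. In 138 (32.7%) the window was repeated, which means that at least 50% of it was soft-masked or at least 50% of its 31-base words occurred more than once in the genome, and 26 (6.16%) were genes of the mitochondrial chromosome. The sequences below are 151 bases of the GRCm38 plus strand, centred on the point, with CpG in capitals, and come from the 66 genes whose windows held no annotated exon and where all 11 lists had a summit within 250 bp. The first 3 are CpG-rich windows of protein-coding genes with a high transcript level among these. They lie upstream of their starts at chr4:134853666-134853816 (Maco1, 396 bp), chr19:53142386-53142536 (Add3, 295 bp) and chr7:63939248-63939398 (Klf13, 408 bp), with 22, 11 and 12 CpG.
Maco1: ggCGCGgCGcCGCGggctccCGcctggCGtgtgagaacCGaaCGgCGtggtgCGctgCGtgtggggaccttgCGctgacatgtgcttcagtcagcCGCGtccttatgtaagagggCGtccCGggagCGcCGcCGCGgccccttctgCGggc
Add3: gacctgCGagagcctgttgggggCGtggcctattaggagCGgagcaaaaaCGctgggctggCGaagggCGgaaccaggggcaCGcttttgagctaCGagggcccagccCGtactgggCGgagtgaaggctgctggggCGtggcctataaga
Klf13: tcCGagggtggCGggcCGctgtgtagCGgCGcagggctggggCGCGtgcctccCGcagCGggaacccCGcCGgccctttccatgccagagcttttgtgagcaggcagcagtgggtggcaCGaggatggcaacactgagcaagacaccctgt
The next pair are other single-copy windows, from the protein-coding genes with the highest transcript level of that class: 1758 bp downstream of the nearest start of Aida at chr1:183299253-183299403, with 2 CpG, and 226 bp upstream of that of Mtrf1l at chr10:5824061-5824211, with 8 CpG.
Aida: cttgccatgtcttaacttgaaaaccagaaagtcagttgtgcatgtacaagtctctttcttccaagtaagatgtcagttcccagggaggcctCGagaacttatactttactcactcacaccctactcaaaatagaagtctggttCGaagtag
Mtrf1l: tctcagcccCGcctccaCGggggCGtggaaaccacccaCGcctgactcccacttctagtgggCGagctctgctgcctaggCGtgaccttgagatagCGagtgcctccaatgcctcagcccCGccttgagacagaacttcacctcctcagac
The last 4 are the repeated windows with the strongest peaks, beside the noncoding RNA Gm33838 at chr9:35305356-35305506, the predicted gene Gm10800 at chr2:98664988-98665138, the pseudogene Gm13717 at chr6:29748262-29748412 and Gm26870 at chr9:3018463-3018613.
Gm33838: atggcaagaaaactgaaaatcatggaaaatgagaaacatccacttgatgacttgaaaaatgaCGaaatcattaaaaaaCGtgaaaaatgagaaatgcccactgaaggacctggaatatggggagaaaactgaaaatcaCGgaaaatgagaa
Gm10800: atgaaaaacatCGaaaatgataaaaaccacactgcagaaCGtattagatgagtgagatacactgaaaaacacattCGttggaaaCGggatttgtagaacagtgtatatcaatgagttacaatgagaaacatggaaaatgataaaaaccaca
Gm13717: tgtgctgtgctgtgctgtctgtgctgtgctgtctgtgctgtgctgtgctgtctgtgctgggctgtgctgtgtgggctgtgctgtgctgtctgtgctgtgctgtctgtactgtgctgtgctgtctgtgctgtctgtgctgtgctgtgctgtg
Gm26870: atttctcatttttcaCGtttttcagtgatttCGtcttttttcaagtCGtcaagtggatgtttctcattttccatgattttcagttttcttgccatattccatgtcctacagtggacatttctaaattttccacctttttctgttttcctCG
The window of Gm33838 shares a run of 47 bases with that of Gm26870, on opposite strands, although they lie apart on chromosome 9. The median 31-base word of the Gm26870 window occurred 44 times in the genome, that of Gm13717 11 times, and all words of the Maco1 and Add3 windows once. Peak values differed between the examples and did not simply follow the class. The median −log10 p over the 11 lists was 5.99 at Maco1, 6.68 at Add3 and 6.00 at Klf13, against 216 at Gm33838, 196 at Gm10800, 113 at Gm13717 and 63.2 at Gm26870. Of the other single-copy examples, Mtrf1l stood at 5.39 and Aida at 58.4, close to Gm26870.

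Across the whole group, the strongest peaks were mostly those on repeated DNA. The median −log10 p was 5.31 for the CpG-rich genes, 5.40 for the other single-copy genes, 7.00 for the mitochondrial genes and 8.91 for the repeated class. Of the 79 genes with a median −log10 p of 12 or more, 60 (75.9%) were in the repeated class and 4 were CpG-rich, whereas of the 116 genes between 5 and 6, 22 were repeated. These values are a description, since the same lists chose the genes. The repeated class was a larger share of the group (32.7%) than of the 648 genes with 4 marks (18.8%) or of the 13485 H3K4me3 promoter summits of other genes (4.61%). Only 90 of the 422 genes kept all 5 marks when each peak also had to pass a q-value of 0.01, and of these 64 were repeated, 9 mitochondrial, 9 CpG-rich and 8 other single-copy. Among the CpG-rich genes that did so were the deubiquitinase gene Usp5 with its neighbour Cdca3, a regulator of mitotic entry, and 3 genes of the nuclear ribosomal DNA, CT010467.1, Gm42418 and AY036118, which is carried in many copies by the cell and in few by the assembly.

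**Figure D1:**
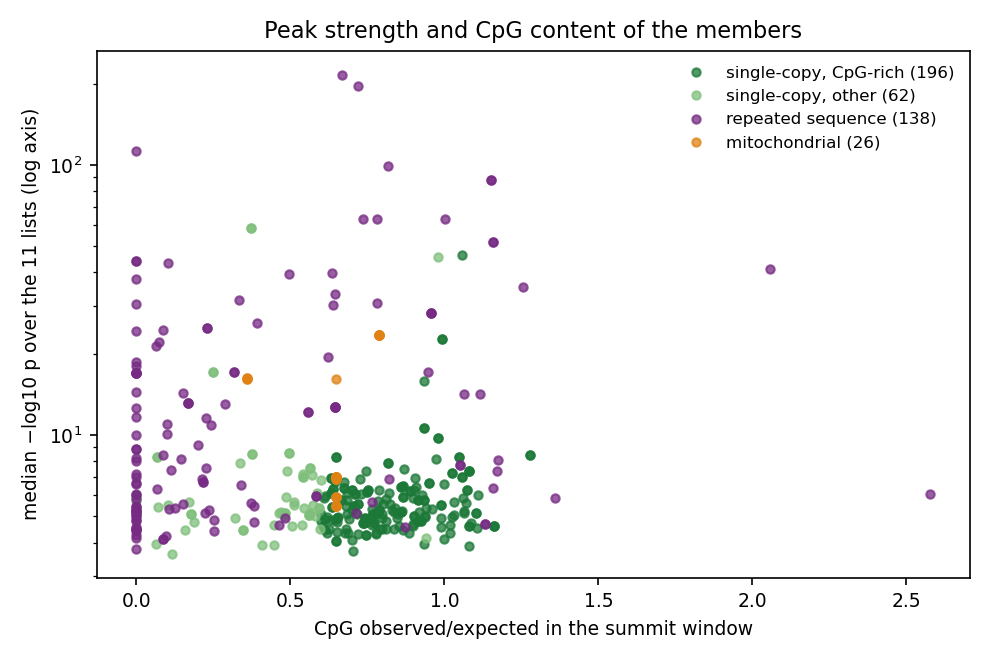
Median −log10 p of the peaks over the 11 P7 WT arginine mark lists (log axis) against the CpG observed over expected of the summit window, 1 point per gene, coloured by sequence class. Repeated windows hold 60 of the 79 genes at a median of 12 or more, and 2 genes with no defined CpG ratio are not drawn.

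The threshold of 3000 bp separated genes that differed little. Just inside lay Wdr78, whose farthest mark, H4R3me1, was at 2944 bp, Thada (H3R2me2a at 2914 bp) and Gm4691 (H3R2me2a at 2911 bp). Just outside lay Tanc1 and Gm26917, whose H3R8me2a summits were at 3026 bp, and Slc7a13 at 3029 bp. Of all genes, 44708 had none of the 5 marks, 6026 had 1, 2420 had 2, 1226 had 3 and 648 had 4. The mark that the 648 lacked was most often H3R2me2a (196 genes), followed by H3R8me2a (140), H4R3me2s (125), H4R3me1 (117) and H4R3me2a (70). H4R3me2a needed 2 of 3 lists and each other mark both of its lists, so the last place of H4R3me2a depends on this. With 1 H4R3me2a list left out and both others required, the members numbered 324 to 342.

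Within the window, the summits lay close to the transcript start, but not always at one point. The median distance from summit to start was 285.5 bp for H4R3me2s, 336.5 bp for H3R8me2a, 347 bp for H4R3me1, 351.5 bp for H3R2me2a and 380 bp for H4R3me2a, beside 214.5 bp for H3K4me3 and 259 bp for H3K27ac. In 231 genes all 5 marks lay within 1000 bp of a start, in 149 within 500 bp and in 43 within 250 bp. All 5 marks, each in at least 2 lists, fell within 250 bp of 1 point in 136 genes (32.2%), 4 marks in 108 and fewer in the rest. This held for 42 of 196 CpG-rich genes (21.4%), 16 of 62 other single-copy genes, 78 of 138 repeated genes (56.5%) and none of the 26 mitochondrial genes. CpG-rich genes with all 5 at 1 point included Srp9, a subunit of the signal recognition particle, Immt, an organizer of the mitochondrial cristae, Gcsh of the glycine cleavage system, and Acin1, a splicing-associated protein. In the other 286 genes at least 1 mark had a summit near the point where most marks met in fewer than 2 lists. The rule accepts each mark at any annotated start of the gene, so there the marks need not lie at the same promoter.

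**Figure D2:**
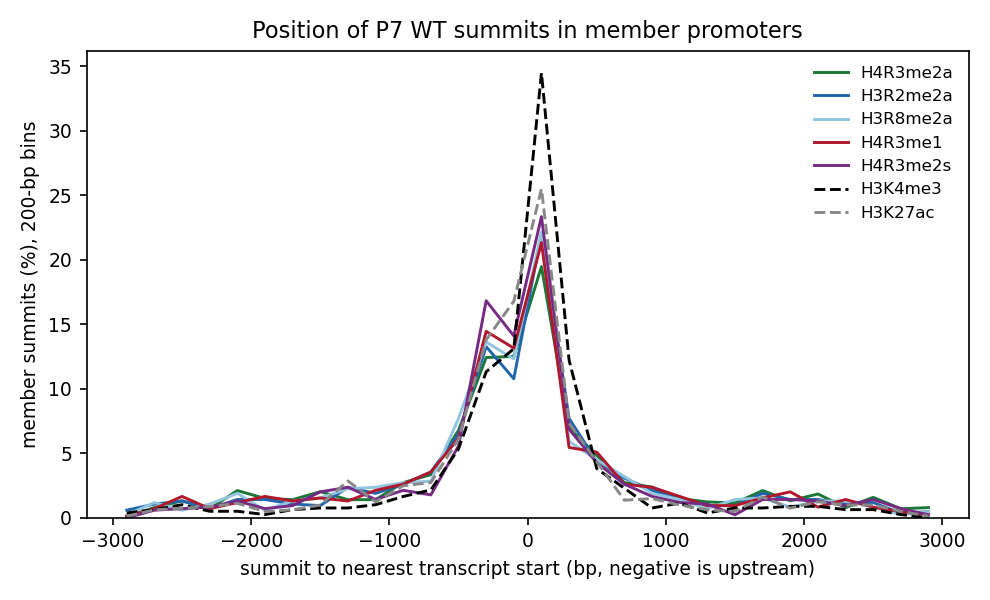
Distance from the P7 WT summits to the nearest transcript start in bins of 200 bp, as a percentage of the member summits of each mark, with arginine marks as solid and lysine marks as dashed lines. The lines of all marks peak near the start, and the median distances run from 214.5 bp for H3K4me3 to 380 bp for H4R3me2a.

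Most of the group were protein-coding genes, but mitochondrial and ribosomal RNA genes were part of it. There were 292 protein-coding genes (69.2%, against 39.6% of all genes), 18 miRNA genes, 17 processed pseudogenes, 16 of the 22 mitochondrial tRNA genes, 13 lincRNA and 13 antisense genes and 10 rRNA genes. Neighbours within reach of one peak are counted separately, so the 422 genes made up 287 loci, of which 198 held 1 gene, 74 held 2 and 15 more than 2. The largest, with 21 genes, was mitochondrial, and a locus of 9 genes on chromosome 9 ran from Gm26870 to Mir101c. Others held 5S rRNA genes on chromosome 8 and the Duxf3 cluster on chromosome 10, which encodes Dux-family homeobox proteins of the early embryo. The X chromosome held 1 member of its 2614 genes and the Y chromosome 1 of 1570.

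Paired promoters were frequent. Among the protein-coding members, 95 of 292 (32.5%) had a protein-coding start on the opposite strand within 1000 bp, against 28.7% of those with 4 marks, 22.7% with 3, 18.8% with 2, 15.5% with 1 and 6.82% with none. The share was 16.9% for the other genes with H3K4me3. Of the 37 loci that held exactly 2 protein-coding members, 30 were such pairs, among them Hnrnpk with Rmi1, Uqcrh with Lrrc41, Usp5 with Cdca3 and Ints13 with Fgfr1op2. A peak between paired starts counts for both genes, and members also had more annotated starts, with a median of 6 against 3 for all protein-coding genes and a median span of 19623 against 2811 bp between the first and last start. Genes with 4 marks were alike in this, with a median of 6 starts over 20857 bp, and other H3K4me3 genes had 5 over 7991.5 bp. The part of both in this share was not tested.

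Members among the genes of histone enzymes and of germ cells were counted against all protein-coding genes, of which 292 of 21951 (1.33%) were members and 7705 had at least 1 mark. Of the 9 arginine methyltransferase genes, 1 was a member, Carm1, which methylates H3R17 and H3R26. Prmt2 had 4 of the marks at P7, Prmt1 3, Prmt8 and Prmt9 2 each, Prmt3 1, and Prmt5, Prmt6 and Prmt7 none. At Carm1 the P7 H4R3me2a peaks had a −log10 p of 4.46, 6.39 and 4.14, those of H3R2me2a 5.59 and 4.52, of H3R8me2a 7.98 and 11.4, of H4R3me1 4.62 and 7.16, and of H4R3me2s 8.89 and 6.09. The H3K4me3 peaks at the same promoter, called under another threshold, had 30.8 and 21.2. Of 55 genes of the histone lysine enzymes, 4 were members: Hdac2, a histone deacetylase, Kdm1b, an H3K4 demethylase of the oocyte, Kdm2a, an H3K36 demethylase that binds unmethylated CpG, and Setd4, a SET domain protein. At Hdac2 the 11 arginine mark peaks ranged from 4.14 to 8.62 and the H3K4me3 peaks were at 39.7 and 38.1. None of the 18 undifferentiated spermatogonia genes was a member, although 7 had at least 1 mark and Etv5, a transcription factor of spermatogonial stem cells, had 4. None of the 11 differentiation genes and none of the 28 meiosis genes was one either, while 5 and 7 of them had at least 1 mark. With lists this short, a count of 0 is near the share over all protein-coding genes.

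The other lists held few members or none. Of 99 ribosomal protein genes, 1 was a member, Rps27l, of 98 ubiquitin genes 2, Usp5 and Ube3a, of 68 translation factor genes 1, the kinase gene Eif2ak4, and of 439 zinc finger genes 7. There was no member among 78 mitochondrial ribosomal protein, 67 histone, 50 proteasome, 53 DEAD/DEAH helicase, 43 RNA polymerase II and Mediator, 39 Hox and 1135 olfactory receptor genes. Over all protein-coding genes the members made up 1.33%, a share that lists of these sizes with a few members or none do not set apart, other than the olfactory receptor genes.

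For the named promoters, RefSeq (GRCm38.p6) gave 300 bases from 250 before to 50 after the start, and 211 of 282 searched symbols matched, with 301 promoters. Their CpG observed over expected was 0.781 in the median, against 0.588 over all 20118 promoters and 0.756 over the promoters of other H3K4me3 genes, and their GC content was 63% against 57% and 61.3%. On either strand, GGGCGG was found in 66.1% of them (47.7% of all, 63.6% of other H3K4me3 genes), CCAAT in 46.2% (37.8% and 37.7%) and TATAAA in 4.32% (12.2% and 6.74%). The ETS-type CCGGAAG stood at 16.3% (11.9% and 16.8%), CACGTG at 7.64% (8.03% and 9.91%) and TGACGTCA at 3.32% (2.32% and 3.05%). The longer AAGATGGCG stood at 3.65% (1.92% and 2.80%), GCGCATGCG at 3.32% (2.45% and 3.58%) and CTCGCGAGA at 2.33% (0.979% and 1.45%). These are descriptions of letters in a window, and genes that share a promoter are counted more than once.

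The promoters also carried the marks that the rule did not use. At P7, 388 of 422 members (91.9%, 95% Wilson interval 89.0 to 94.2) had H3K4me3 in both lists, against 88.6% of the genes with 4 arginine marks, 60.7% of protein-coding genes and 30.7% of all genes. H3K27ac was at 387 (91.7%), against 81.9%, 30.96% and 15.9%. Both shares were thus close to or somewhat above those of the genes with 4 marks. Both were present at 364 (86.3%), and 11 had neither. By class, H3K4me3 was on 196 of 196 CpG-rich genes, 57 of 62 other single-copy genes, 116 of 138 repeated genes (84.1%) and 19 of 26 mitochondrial genes. Mitochondrial DNA is not packed on histones. Intervals cover counting error only, and members that share a locus are not independent.

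At P14, most members still had the arginine marks. All 5 were present at 394 of 422 (93.4%, 95% Wilson interval 90.6 to 95.4), against 77.8% of the genes with 4 marks at P7 and 8.15% of all genes. Of the other members, 19 had 4 and 9 had 3. H4R3me2a was missing at none, H3R2me2a at 4 (Mfap2, Pcnx3 and the ribosomal DNA genes CT010467.1 and AY036118), H4R3me2s at 7, H4R3me1 at 12 and H3R8me2a at 14. H4R3me2a and H4R3me2s needed 2 of 3 lists and the other marks both of theirs, so this order depends on the number of lists. With 1 P14 H4R3me2s list left out, 374 to 380 members had all 5. The P14 lists were mostly longer, with 18423 to 55908 peaks against 15361 to 36145 in the P7 WT lists. For every mark but H4R3me2s, each P14 list also marked a larger share of all genes than the P7 WT lists. For H4R3me2s that share was 24.6, 17.5 and 19.2% at P14 against 19.9 and 20.9% at P7. A summit stood in all 33 lists at 180 members, among them Rps27l, Ube3a, Hdac2, Adk, which encodes adenosine kinase, and Auts2. The rule required most of the P7 lists already, so this count covers members alone. At a pair of promoters with a summit in every list, H4R3me2a peak values were higher at P14. At Hdac2 the P14 H4R3me2a peaks had a −log10 p of 9.42, 10.004 and 8.47, against 5.54, 4.56 and 5.33 at P7. At Rps27l they had 9.9993, 16.3 and 17.4, against 5.54, 5.33 and 6.89. The groups did not overlap at either gene. Nor did the H4R3me2a list medians over all CpG-rich members, at 8.96, 10.7 and 9.82 at P14 against 4.92, 5.34 and 5.46 at P7. Those of the repeated class overlapped, at 10.8, 10.8 and 10.6 against 9.77, 10.4 and 11.1. The P7 values were used by the rule, and a −log10 p scales with depth, which is not known for the lists. Other marks and genes overlapped between the ages, such as H4R3me2s at Hnrnpk.

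**Figure D3:**
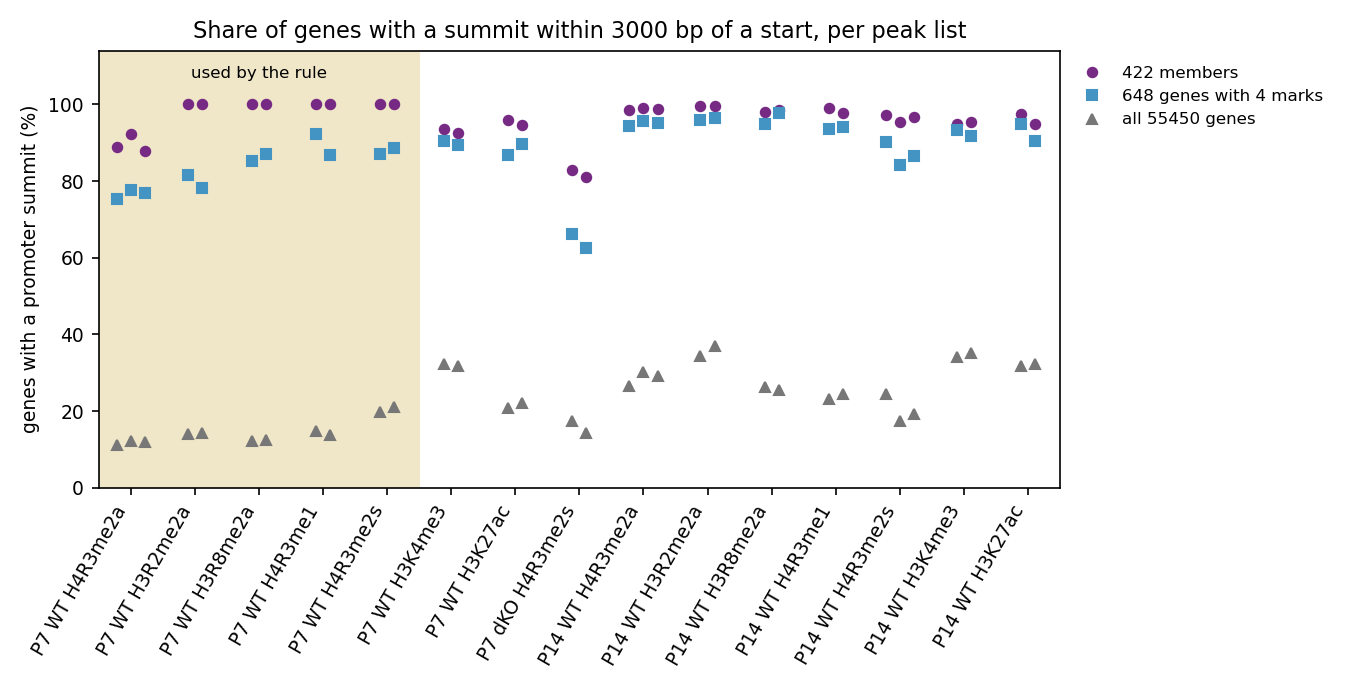
Percentage of the 422 members, of the 648 genes with 4 marks and of all 55450 genes with a summit within 3000 bp of a start, 1 point per peak list. The shaded columns were used by the rule and are no result. Members were at 95.5 to 99.5% in the P14 WT arginine mark lists and at 82.9 and 81.0% in the P7 dKO lists.

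H4R3me2s was found at most members in the Prmt1-dKO lists too. It stood in both lists at 299 of 422 (70.9%, 95% Wilson interval 66.3 to 74.99), in 1 list at 94 and in none at 29, against 5.21% of all genes and 42.9% of the genes with 4 marks in both. Each dKO list held 82.9% and 81.0% of the members, in 33941 and 28221 peaks. The WT lists had been used to choose the members and stand at 100% for that reason. A comparison was therefore made over the 547 genes chosen by the other 4 marks alone. There H4R3me2s was present at 84.8 and 86.5% in the WT lists (85.6 ± 1.16, SD, n = 2) and at 77.5 and 75.7% in the dKO lists (76.6 ± 1.29, SD, n = 2). The difference, dKO minus WT, was −9.05 percentage points, and the groups did not overlap, but 2 against 2 lists cannot go below p = 0.3333 in the exact permutation test, two-sided, which is the value obtained. Over all genes the share was lower in dKO as well, at 17.4 and 14.4% against 19.9 and 20.9% in WT, so the lower share was not limited to these genes. With all P7 lists at the same 19981 peaks, the shares were 84.8 and 78.2% in WT and 71.5 and 67.5% in dKO. At P14 they were 93.1, 90.1 and 91.6% (91.6 ± 1.46, SD, n = 3; exact permutation test against P7 WT, two-sided p = 0.2, where 0.2 is the smallest possible).

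By class, H4R3me2s stood in both dKO lists at 108 of 138 repeated genes (78.3%), 38 of 62 other single-copy genes (61.3%), 127 of 196 CpG-rich genes (64.8%) and all 26 mitochondrial genes. Of the 29 members with no H4R3me2s summit in either dKO list, 24 were protein-coding, 16 were CpG-rich and 26 had the mark in WT at P14. Those with the highest transcript level were Hnrnpk, an RNA-binding protein of splicing and translation, Uqcrh, a subunit of respiratory complex III, Gpatch11, Dcakd and Otub1, a deubiquitinase. Over the P7 WT lists of all the arginine marks together, the median −log10 p was 4.92 for these 29. It was 5.15 for the 94 with H4R3me2s in 1 dKO list and 6.68 for the 299 with it in both. The members without it thus had the weaker peaks over the marks together, in lists that had also chosen the members. Whether their WT H4R3me2s peaks alone were weaker was not tested. For H4R3me2s alone, the −log10 p at Hnrnpk was 14.6 and 5.13 in P7 WT and 10.3, 8.996 and 7.42 at P14. At Uqcrh it was 3.68 and 6.02, then 9.20, 4.65 and 9.90, and at Otub1 3.23 and 3.46, then 5.73, 4.33 and 7.23. Hdac2 and Carm1 had a summit in both dKO lists, at 4.32 and 6.40 and at 7.55 and 5.32.

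The transcript level was given as TPM, a share of a library's transcripts after scaling by length. Over all gene types, the median member stood at 10.6 TPM in WT Smart-seq2 and 14.4 TPM in WT bulk RNA-seq, and genes with 0, 1, 2, 3 and 4 marks stood at 0, 2.86, 8.45, 13.6 and 16.5 TPM in Smart-seq2. The members' median was 6.595 TPM without the H4R3me2a list of replicate 1 and 6.43 TPM without that of replicate 2, 16.2 TPM with a window of 1000 bp and 0 TPM with a q-value of 0.01. Members were therefore not the most expressed class. Among protein-coding genes the medians for 0 to 5 marks were 0, 11, 17.3, 23.1, 26.2 and 21.2 TPM in Smart-seq2 and 0.847, 18.9, 25, 30.9, 33.8 and 29.7 TPM in bulk, so that the level rose up to 4 marks and was slightly lower with 5. By class of DNA, the median Smart-seq2 level over all gene types was 24.7 TPM for CpG-rich genes, 9.20 for other single-copy genes and 0 for the repeated and the mitochondrial class, which differ in gene type. Among protein-coding members alone it was 36.2 TPM for 159 CpG-rich genes, 15 TPM for 50 other single-copy genes, 5.89 TPM for 74 repeated genes and 2509 TPM for the 9 mitochondrial genes. The mitochondrial median of 0 thus covers 16 tRNA genes beside some of the highest levels of the group, such as mt-Atp6 at 7423 TPM and mt-Co1 at 6106 TPM. Of the 419 members with a row in the RNA tables, 278 (66.3%) reached 1 TPM in Smart-seq2 and 283 in bulk. Of the protein-coding members, 26 stayed under 1 TPM in both assays, such as Fut7, Slc45a1, Tmem145, Gm10801 and Gm10722, all with a summit in every list.

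**Figure D4:**
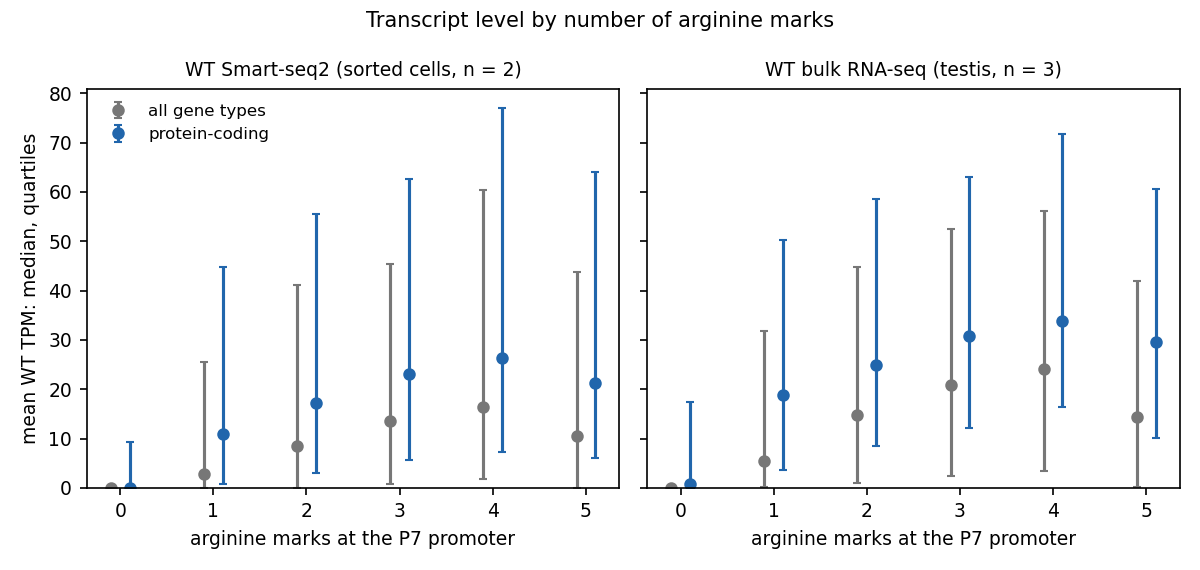
Median (points) and quartiles (bars) of the WT transcript level in TPM, by the number of arginine marks at the P7 promoter, for all gene types and for protein-coding genes, in Smart-seq2 (left, mean of 2 libraries per gene) and bulk RNA-seq (right, mean of 3). Protein-coding genes with 5 marks stood at 21.2 and 29.7 TPM, below those with 4 at 26.2 and 33.8.

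The named members covered a wide range of levels. Hnrnpk was at 1252 and 1057 TPM in the WT Smart-seq2 libraries and at 746, 792 and 662 TPM in WT bulk. Rps27l, a ribosomal protein S27 paralogue, was at 1314 and 1637 TPM and at 423, 408 and 433 TPM. Both were high in every library. Hdac2 was at 223 and 208 TPM and at 180, 180 and 178 TPM. Carm1 was at 20.8 and 6.27 TPM and at 62.0, 52.9 and 53.1 TPM.

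In bulk RNA-seq, few members changed in the Prmt1-dKO testis. Prmt1 itself checked the labels: it was at 652, 604 and 638 TPM in WT and at 410, 433 and 402 TPM in dKO (edgeR log2 fold change −0.49, SE 0.13, adjusted p = 0.0334), and in Smart-seq2 at 350 and 239 TPM against 179 and 151 TPM (−0.88, SE 0.26, adjusted p = 0.133). It was lower in every dKO library than in any WT library of its assay, and not at 0 in any. By edgeR's quasi-likelihood test with Benjamini-Hochberg adjustment, at a threshold of 0.05 and 2-fold, 7 of 295 members tested were higher and 4 lower, 3.73% in either direction, where 7.1% of the 16554 genes tested were called (5.32% higher and 1.78% lower). The median log2 fold change was −0.07 over members and 0.02 over all genes, and 173 members had a negative sign. The members' median level was 14.97, 14.6 and 13.7 TPM in the WT libraries and 13.8, 9.75 and 13.1 TPM in dKO, with dKO replicate 2 below the rest. All 7 that rose belonged to the repeated class, where 65 were tested, and of the 220 members tested whose window is single-copy in the assembly none rose and 3 fell, 1 of them the ribosomal DNA gene CT010467.1. Among the 7, Gm10800, Duxf3 and Hectd2os were near 0 in WT and passed the filter on low counts through the dKO libraries, so their direction was fixed by it and the count of 7 is no support for the class. DESeq2 called 12 of 322 higher and 4 lower, where it called 6.12% and 1.33% of all genes, and among its 12 were the single-copy members Gm49493 and Gm10801. Rnf165, Hectd2os and Gm47283, called higher by edgeR, were not among them. Sertoli, Leydig and myoid markers moved the same way as the genotype: summed TPM of the 8 Sertoli markers was 4697 to 5107 in WT and 3141 to 3454 in dKO, of the Leydig markers 624 to 724 and 164 to 185, and of the myoid markers 827 to 900 and 290 to 507, while the germ cell list was at 1519 to 1781 and 1427 to 1492. No marker gene is a member, and the part of these cells in the result was not tested.

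The genes called higher are given by library. Ank1, the ankyrin of red blood cells, had 45, 55 and 48 counts in WT and 129, 125 and 144 in dKO (log2 fold change 1.60, SE 0.18, adjusted p = 0.0013, edgeR). Rbfox3, a neuronal splicing factor, had 19, 20 and 13 against 39, 57 and 53 (1.69, SE 0.32, adjusted p = 0.0079, edgeR). In both, every dKO library was above every WT library. Gm10800 had 0 counts in all WT libraries and 109, 74 and 39 in dKO, at least 29.5-fold higher against a floor of 3 counts per library. Duxf3 had 1, 0 and 0 counts in WT and 41, 105 and 97 in dKO, a ratio of 281 with an exact 95% counting interval of 50.04 to 11161. Hectd2os, an antisense gene, had 10, 0 and 0 against 51, 54 and 76. The Duxf3 and Gm10800 reads may come from near-identical copies, between which RSEM splits them, and Hectd2os overlaps another gene, so their counts are uncertain. The others were Rnf165 (35, 69 and 56 against 104, 92 and 87) and Gm47283 (3039, 4399 and 8311 against 9584, 8854 and 11465).

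Slc7a1, a transporter of cationic amino acids, was the clearest single-copy gene that fell, with 42.1, 38.5 and 34.2 TPM in WT and 20.1, 9.75 and 18.6 TPM in dKO (log2 fold change −1.12, SE 0.19, adjusted p = 0.0056, edgeR). It is also one of the 29 members without H4R3me2s in the dKO lists, of which 1 of 27 tested was called, beside 2 of 74 with H4R3me2s in 1 dKO list and 8 of 194 with it in both. Tmem267 fell from 166, 135 and 199 counts to 80, 52 and 79 (−1.08, SE 0.22, adjusted p = 0.0102, edgeR). The other genes that fell were RNA of ribosomes. The mitochondrial large rRNA gene mt-Rnr2 went from 775, 813 and 726 TPM to 242, 230 and 133 TPM (−1.76, SE 0.22, adjusted p = 0.0018, edgeR), and CT010467.1 from 9984, 8902 and 8716 TPM to 2891, 1755 and 4639 TPM (−1.43, SE 0.27, adjusted p = 0.0075, edgeR). In Smart-seq2 both had the opposite sign, with log2 fold changes of 0.65 and 1.63 and adjusted p of 0.092 and 0.077. The histone enzymes did not pass: log2 fold changes were −0.18 for Hdac2, −0.24 for Carm1, −0.27 for Kdm1b, 0.54 for Setd4 and −0.16 for Kdm2a, with adjusted p from 0.069 to 0.485. Hnrnpk, whose H4R3me2s summit was not found in the dKO lists, was at 624, 416 and 685 TPM in dKO bulk (−0.16, SE 0.14, adjusted p = 0.470, edgeR).

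**Figure D5:**
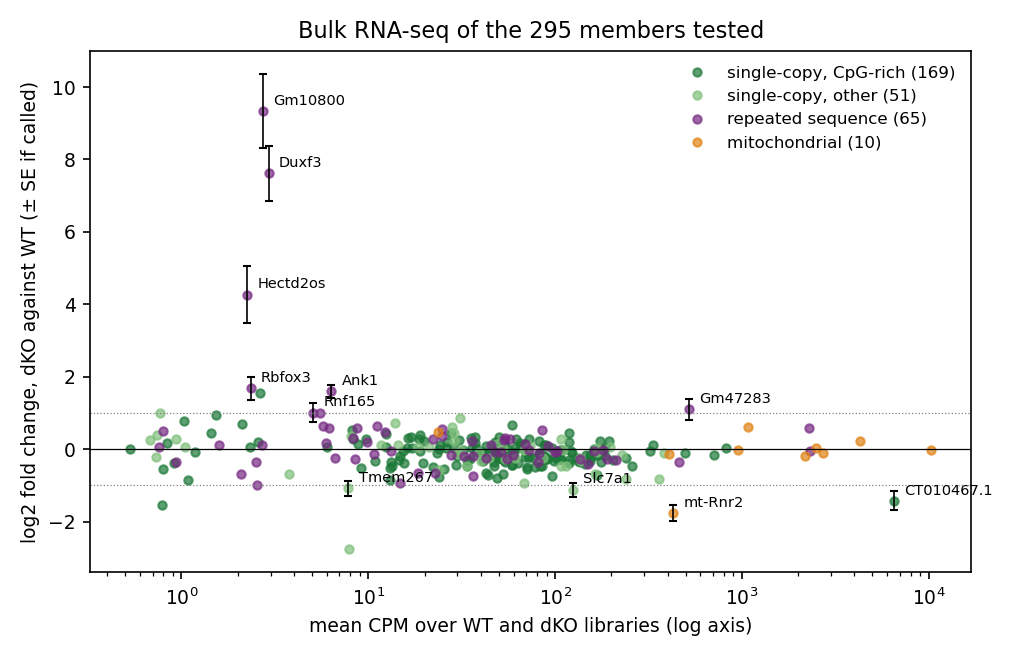
log2 fold change of the Prmt1-dKO over the WT bulk RNA-seq libraries (edgeR, ± SE for called genes) against the mean CPM (log axis), for the 295 members tested, coloured by sequence class. The 7 called higher are all repeated-class genes, and the height of Gm10800 depends on the prior count because its WT libraries hold no reads.

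In Smart-seq2, no member and no gene of 16443 was called by edgeR's adjusted p at 0.05 and 2-fold (0% of the background). The count of 0 did not hold when either WT library was left out. In those fits the lone WT library is assumed to vary like the dKO libraries, and their calls are not set against all genes here. At an unadjusted p below 0.05, 14 members (4.90%) were higher and 21 (7.34%) lower of 286 tested, where 13.8% of all genes were higher and 4.12% lower. DESeq2 called 12 higher and 23 lower of 294, where it called 7.02% and 3.79% of all genes. The 2 tools therefore differ in what they call in 2 against 2 libraries. In a simulation of this comparison edgeR recovered 4 of 100 2-fold and 21 of 100 4-fold changes with 8 unchanged genes called. DESeq2 recovered 18 and 59 with 191 unchanged genes called. The changes were placed only in genes with a mean of at least 50 counts. Values are given for members with the clearest separation, which were chosen after they were seen. Ube3a, a ubiquitin ligase, was at 263 and 324 TPM in WT and at 65.9 and 70.3 TPM in dKO (edgeR log2 fold change −1.43, SE 0.33, adjusted p = 0.079). Zfp672, a zinc finger gene, was at 137 and 161 against 57.4 and 42.2 TPM (−2.31, SE 0.42, adjusted p = 0.077). Fgfr1op2 was at 358 and 412 against 173 and 180 TPM (−1.09, SE 0.15, adjusted p = 0.077). Fcgr3, an Fc receptor of macrophages, was listed at 0 in both WT libraries and at 8.76 and 12.2 TPM in dKO. It passed the filter on low counts through the dKO libraries, as did Naaa and Slc45a1, also at 0 TPM in WT. Their direction was thus fixed by the filter, although they are among the members counted as higher above. All 6 macrophage markers were at 0 in both WT libraries, and their summed TPM was 30.6 to 36.5 in dKO, whose part in the Fcgr3 value was not tested. Other marker lists, all but the Leydig list, also differed between the genotypes in these libraries without overlap. Summed spermatocyte markers were at 647 to 688 TPM in WT and 365 to 404 TPM in dKO, Sertoli markers at 243 to 273 and 339 to 461 TPM, and germ cell markers at 1443 to 1492 and 1826 to 1838 TPM. Endothelial markers were at 102 to 123 and 73.3 to 96.1 TPM, and myoid markers, near 0, at 4.61 to 7.95 and 3.76 to 4.06 TPM. Their part in the values above was not tested.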

How the data were processed

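The authors trimmed the CUT&Tag reads with fastp (0.23.2) and called peaks with MACS2 (2.1.0) in each sample, on mm10, and deposited 33 narrowPeak lists with fold enrichment (a ratio), −log10 p and −log10 q per peak. The authors made 10 RNA tables with RSEM and deposited an expected count and a TPM value per gene; the FPKM column was not used. Peak numbers per list ran from 15361 to 55908 and total counts per RNA library from 12396317 to 18547078. Peaks were called with a threshold of p 0.005 for the arginine marks, as the deposited names state.

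A gene was marked in a list when a summit lay within 3000 bp of any of its GENCODE vM21 starts, and in a group when at least 2 lists held it. Members and gene lists were chosen with earlier results of these data known, and the sequence classes after seeing the data. Expected counts were rounded and tested with edgeR 4.0.16 in R 4.3.3 (quasi-likelihood, TMM, filterByExpr, Benjamini-Hochberg over all genes), with DESeq2 1.42.0 as an alternative. Genes were called at an adjusted p under 0.05 and 2-fold. The edgeR step, tested on simulated bulk data with 200 changed genes, recovered 60 of 100 2-fold and 100 of 100 4-fold changes with 9 false calls among 16554 genes. The changed genes all had a mean of at least 50 counts, so recovery at lower counts was not tested. For Smart-seq2 it recovered 4 of 100 and 21 of 100. Shares carry Wilson 95% intervals. Genes named are those in the most lists, at the highest and lowest TPM, without H4R3me2s in dKO, called with at least 50 counts, in the fixed lists, or at the edge of the window; where mitochondrial genes filled a place, the rule was applied again to nuclear genes. Other names were chosen after their values were seen. The study calls its replicates biological, and the labels do not tie libraries to animals. 0 columns of other samples were used. Some items are not reported here.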

Additional observations from a re-analysis of the deposited data

How the results depend on the processing

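The group of 422 genes depends on the peaks and the window. It fell to 231 with a window of 1000 bp, to 90 with a q-value of 0.01 and to 258 without the mitochondrial and repeated classes, an alternative added after seeing the data, and rose to 2809 when 1 list per mark was enough, while leaving out 1 list gave 324 to 498. The P14 share of 93.4% became 85.5% at equal list length and 99.8% with 1 P14 list, and 88.6 to 95.4% without 1 list. The share with H4R3me2s in both dKO lists, 70.9%, became 93.3% at q 0.01, 64% in single-copy genes and 93.1% with 1 dKO list, and 66.5 to 82.9% without 1 list. The H3K4me3 share of 91.9% became 96.5% at 1000 bp, 97.8% at q 0.01, 87.7% at equal length, 96.2% in protein-coding and 98.1% in single-copy genes, and 89.9 to 93.6% without 1 list. The median TPM of 10.6 became 16.2 at 1000 bp, 0 at q 0.01, 7.86 at equal length, 21.2 in protein-coding genes, 20.1 in single-copy genes and 14.4 in bulk, and 6.43 to 12.8 without 1 list. Bulk calls (11) became 22 with no filter, 7 at 1000 bp and 3 in single-copy genes, and 10 to 17 without 1 library, 17 of them without dKO replicate 1. Smart-seq2 calls (0) became 35 with DESeq2. They did not stay at 0 when either WT library was left out, in fits that leave 1 WT library. The replicate numbers did not pair the libraries (correlations of deviations 0.11, −0.31 and −0.21 in bulk, 0.01 in Smart-seq2), and with the replicate block 11 members (6 higher, 5 lower) were called in bulk and 0 in Smart-seq2. The number of genes stayed within 1.5 times the value given in 15 of 19 alternatives and bulk calls in 8 of 12. The P14 share stayed within the 95% Wilson interval of the value given in 23 of 30, the dKO share in 14 of 20 and the H3K4me3 share in 14 of 19. The median TPM was the least stable and stayed within 1.48 TPM, the SD of the WT library medians, in 6 of 18. The causes were not tested. The depth of the peak lists is unknown, so a missing summit is not an absent mark.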
